A study of Mus musculus with 18 samples.

Results

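The genes described here separate adult-type from fetal-type intestinal organoids in the same direction whether the organoids were grown from intestine or from fibroblasts converted to intestinal progenitors. The comparison used 12 of the 18 arrays of the study. The mean of 6 adult-type arrays (crypt and iISC organoids) was set against the mean of 6 fetal-type arrays (FI and iFIPC organoids), with origin, native or induced, as a term. Of 14519 genes tested, 1034 (7.12%) were called for stage by limma, which here means an adjusted p (Benjamini-Hochberg) under 0.05 together with a log2 difference of at least 1. A called gene counted as shared when its difference was at least 1 in that direction in native and in induced organoids taken by themselves, and 754 genes (5.19%) met this rule. Since the rule rests on these arrays, the differences of shared genes within each origin are given as descriptions.

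The native groups were crypt organoids, budding organoids from adult intestinal crypts, and FI organoids, a mixture of spherical and budding organoids from fetal intestine. The induced groups were iISC organoids, budding organoids from induced intestinal stem cells, and iFIPC organoids, spherical and budding organoids from induced fetal intestinal progenitor cells, which the study made from mouse fibroblasts. Each group had 3 arrays, the strain given for the samples is C57BL/6, and the labels used here do not name the converting factors, the ages of the donors, the number of lines or whether cultures were pooled. Every adult-type sample was of budding organoids and every fetal-type sample included spherical ones, so stage and organoid form cannot be told apart. The 6 arrays of embryonic fibroblasts (MEFs) and hepatocyte-like cells (iHep) entered no test. The organoid arrays had 75th percentiles of 929.7 to 1169.6 intensity units and detected 56.13 to 67.09% of their probes above background. The labels do not state whether the arrays come from separate animals or cultures, so the p-values measure only the spread between these samples. Vil1, the villin of intestinal microvilli, had levels between 6.42 and 6.93 on the 12 arrays, and Cdx2, the caudal homeobox factor of intestinal epithelium, between 3.58 and 6.24. Both were above background on no MEF array but on all 3 iHep arrays, so they do not set the organoids apart from iHep cells. A level is the log2 signal minus the 75th percentile of its array.

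The fetal gut epithelium of proliferating progenitors forms villi before birth and crypts after it, and a further switch at weaning replaces milk-handling enterocytes by cells that digest starch and sucrose. Explanted fetal epithelium tends to grow as round spheroids that carry a distinctive set of surface and stress-linked genes, whereas adult crypts bud and contain Lgr5 stem cells and Paneth cells. The repressor Prdm1 (Blimp1) is known to hold the suckling-type programme in place before weaning, and the coactivator YAP, which Hippo signalling restrains, drives TEAD targets in fetal and regenerating epithelium.

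At the thresholds of the stage call, more genes were called higher in the fetal-type organoids. The stage call fell on 401 genes higher in adult-type organoids (2.76% of genes tested) and 633 higher in fetal-type organoids (4.36%), while the median of all genes tested was 0.01. Among the 12538 genes well above background on all 12 arrays the calls were even, 345 and 340. At an unadjusted p under 0.05 (limma) with no size threshold, 2168 genes were higher in adult-type and 1989 in fetal-type organoids. Of the stage calls, 292 (2.01%) and 462 (3.18%) were shared. The median log2 difference was -2.45 for shared fetal-type genes (-2.26 in native and -2.38 in induced organoids) and 1.88 for shared adult-type genes (1.88 and 1.79). These sizes are not on an equal footing, since 251 of the 462 shared fetal-type genes but 49 of the 292 shared adult-type genes were below background on at least 1 array of the lower stage, where the fitted size rests on background levels. A fitted difference of at least 3 was reached by 149 shared fetal-type and 39 shared adult-type genes. Values of the 6 adult-type and 6 fetal-type arrays did not overlap for 152 of 292 shared adult-type genes and 184 of 462 shared fetal-type genes. Over all genes tested, such separation was found for 769 genes (5.3%), 434 in the adult direction (2.99%) and 335 in the fetal direction (2.31%). Among shared fetal-type genes, 75 were well above background on no adult-type array, whereas 4 shared adult-type genes were below background throughout the fetal-type arrays.

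**Figure D1:**
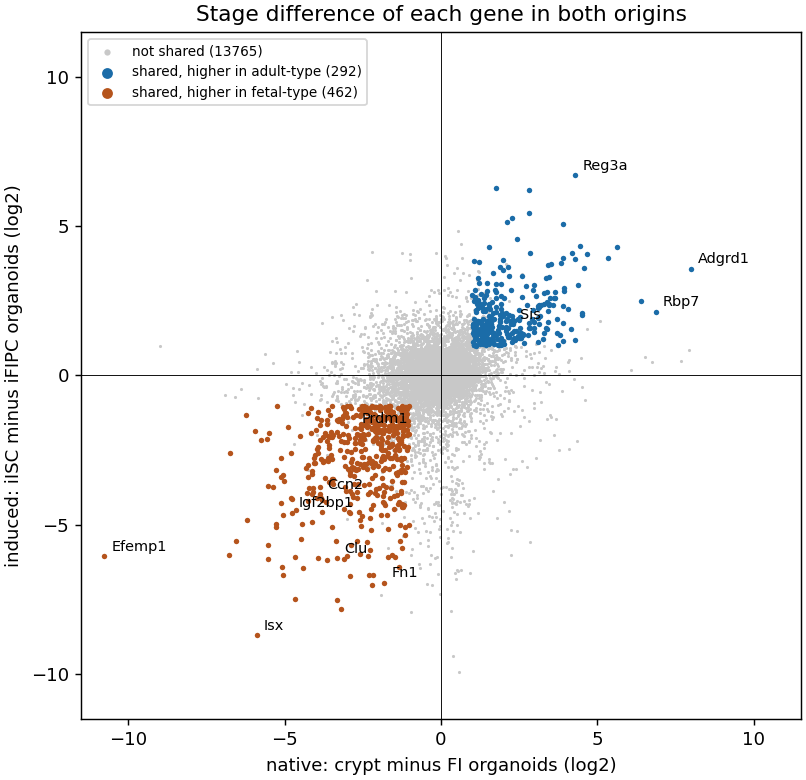
Each point is a gene, with the crypt minus FI difference on the horizontal axis and the iISC minus iFIPC difference on the vertical axis (both log2). Blue points are the 292 shared genes higher in adult-type organoids and orange points the 462 higher in fetal-type organoids, which fill the upper right and lower left corners, while grey points, the other genes tested, spread along both axes.

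Origin moved many genes as well. For origin itself 809 genes were called (5.57%). Taken alone, the native pair gave 1269 calls (8.74%), of which 438 were higher in crypt (3.02%) and 831 in FI organoids (5.72%). The induced pair gave 1100 (7.58%), of which 460 were higher in iISC (3.17%) and 640 in iFIPC organoids (4.41%). The stage difference itself differed between origins, as an interaction at an adjusted p under 0.05 (limma), for 1069 genes (7.36%), and for 10 shared adult-type and 22 shared fetal-type genes. Calls by native organoids and interactions depended on crypt array 1: without it 1779 native calls and 2574 interactions were found, while without crypt array 2 there were 708 and 364, and without crypt array 3 774 and 353. A stricter reading, a call in each origin by itself, left 323 genes (2.22%), of which 124 were adult-type (0.854%) and 199 fetal-type (1.37%). The other 280 called genes had the same sign in both origins but fell short of 1 in one of them, the native difference being the smaller in 123 and the induced in 157. Over all 14519 genes, the native and induced differences correlated with Pearson's r = 0.368 and Spearman's rho = 0.183, a description across genes, which are not independent replicates.

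The fetal spheroid markers were the list with the largest shift. Of 20 tested, 14 were called higher in fetal-type organoids, 13 of them shared, and none was called in the adult direction (0 there at an unadjusted p under 0.05, limma). Their median was -3.59. Clu, the secreted chaperone clusterin, a marker of regenerating epithelium, was detected on every organoid array. Its levels were 0.39, -2.04 and -1.95 in crypt, -0.75, -0.18 and 1.75 in iISC, 1.67, 3.19 and 1.56 in FI, and 7.15, 6.58 and 5.48 in iFIPC organoids. The iFIPC arrays stood above all others, and iISC array 3 reached into the FI range. The stage difference was -4.73 ± 0.71 (SE; limma adjusted p = 0.00228). Anxa1, an annexin linked to epithelial repair, differed by -3.71 ± 0.62 (adjusted p = 0.00376), with levels from -2.32 to 3.88 in adult-type and from 2.70 to 5.62 in fetal-type organoids. Ly6d and Ly6a, small lipid-anchored surface proteins of which Ly6a is Sca-1, differed by -5.14 ± 0.81 and -3.29 ± 0.81, and Msln, the surface protein mesothelin, by -5.18 ± 0.83. In all 3 the lowest fetal-type value, that of FI array 3, lay within the adult-type range: it was -0.37 for Ly6d, -0.69 for Ly6a and 2.15 for Msln. Crypt array 1 was the highest crypt array for Clu (0.39), Anxa1 (0.88), Ly6d (-1.32), Ly6a (-0.26) and Msln (1.39).

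Vsig1, a junctional immunoglobulin protein of stomach epithelium, Il33, an epithelial alarm cytokine, and Anxa8 were also shared, at -5.51, -3.79 and -4.57. Vsig1 differed by -7.83 in induced and -3.19 in native organoids, where crypt array 1 (-4.41) was level with FI array 1 (-4.38). Spp1, which encodes the secreted phosphoprotein osteopontin, was high on the iFIPC arrays (1.60, 2.40 and 2.24) but spread from -7.42 to -2.79 in FI organoids and reached 0.19 on iISC array 3. Its call (-5.41 ± 1.50, adjusted p = 0.0369) was lost without any single array except FI array 3 or iISC array 3. Gja1, the gap junction protein connexin 43, was called (-3.48 ± 0.98) but not shared: its difference was -6.01 in induced and -0.95 in native organoids, where FI arrays 1 and 2 read -8.65 and -8.81. The call of Gja1 was lost on leaving out crypt 3, FI 3, or any single iISC or iFIPC array. That of Ly6a was lost without crypt 2, crypt 3 or FI 2.

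**Figure D2:**
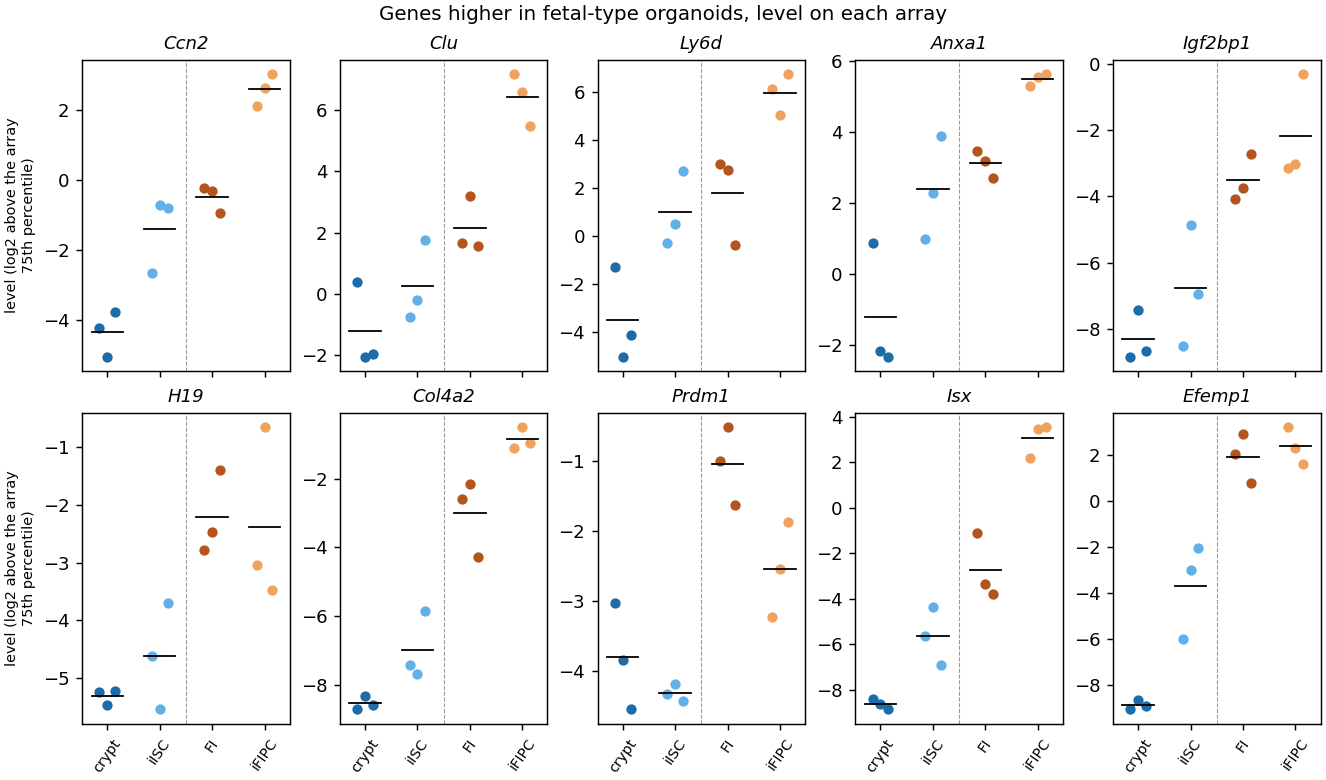
Level on each array (log2 relative to the 75th percentile of that array) of 10 shared genes higher in fetal-type organoids, with bars at group means. Blue points are adult-type (crypt, iISC) and orange points fetal-type organoids (FI, iFIPC), and the dashed line parts the stages. For H19 every fetal-type array lies above every adult-type array, whereas for Clu the FI arrays (1.56 to 3.19) overlap iISC array 3 (1.75).

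Targets of YAP and TEAD followed, with 8 of 21 called higher in fetal-type organoids, 7 of them shared, none called the other way by limma (0 at an unadjusted p under 0.05), and a median of -1.39. Ccn2, a matricellular growth factor and textbook YAP target, had levels of -4.24, -5.05 and -3.78 in crypt, -2.67, -0.72 and -0.81 in iISC, -0.22, -0.33 and -0.94 in FI, and 2.11, 2.62 and 3.02 in iFIPC organoids. Within each origin the fetal-type arrays were above the adult-type arrays, by 3.86 in native and 3.98 in induced organoids, while iISC and FI arrays overlapped. The stage difference of Ccn2 was -3.92 ± 0.36 (adjusted p = 0.00017). Myof, a membrane repair ferlin, showed the same layering (-3.80 ± 0.33), as did Nt5e, the ectonucleotidase CD73 (-3.16 ± 0.55). Ankrd1, a nuclear ankyrin repeat protein, was above background on 5 of 6 fetal-type arrays and on no adult-type array. Its difference is therefore given as a bound, at least 3.82-fold higher in fetal-type organoids. For this, the level on each dim array was raised to that of the faintest detected probe there. An undetected probe can read above that floor, as Fn1 did on FI array 1 (-6.31, floor -6.88). Such bounds, here and below, therefore hold against that floor and not against a strict detection limit. Ccn1, another matricellular target, was called (-1.21 ± 0.14) but fell just outside the shared rule, as described below.

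Of 22 genes of the extracellular matrix 12 were called higher in fetal-type organoids, 10 of them shared, and none in adult-type organoids (0 at an unadjusted p under 0.05, limma), with a median of -1.91. Epithelial basement membrane genes made up most of them, namely the type IV collagens Col4a1, Col4a2 and Col4a5, Col18a1, and the laminin chains Lama3, Lama5, Lamb1 and Lamb2. Col4a2 was below background on every adult-type array and read -2.60, -2.15 and -4.27 in FI and -1.09, -0.49 and -0.97 in iFIPC organoids, at least 21.15-fold higher (adjusted p = 5.67e-05). Col18a1, the precursor of endostatin, was measured on all 12 arrays and differed by -3.31 ± 0.56; iFIPC organoids stood at 3.01 to 3.55 and FI organoids at -1.29 to 0.53. Col1a1, the fibrillar collagen of fibroblasts, was at least 10.15-fold higher but uneven, with 1 FI array at -1.10 and the others at -7.42 and -5.93. Fn1, fibronectin, was well above background on the 3 iFIPC arrays only, so that its native difference has no measured direction although it met the shared rule, and its stage difference differed between origins (interaction adjusted p = 0.0223).

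Fibroblast markers were highest in the iFIPC organoids, as were the matrix genes. Of 15 tested, 2 were called higher in fetal-type organoids, Col1a1 and Fbln2, and the list median was 0.20 in native and -2.40 in induced organoids. The summed linear level of the 24 markers on the array, in multiples of the 75th percentile, was 3.32 to 3.87 in crypt, 3.47 to 4.20 in iISC, 2.94 to 5.12 in FI and 17.3 to 30.2 in iFIPC organoids. Of the 24, 13 were above background on no crypt array, 12 on no iISC array, 10 on no FI array and 5 on no iFIPC array. In native organoids Col18a1 differed by -1.93, Ccn2 by -3.86 and Myof by -3.88, and Col4a2 was at least 12.3-fold higher in FI organoids. What part fibroblasts had in the matrix and YAP results was not tested in either origin. Of other cell types, 1 of 7 smooth muscle markers was called for stage (Mylk, higher in adult-type organoids). So were 1 of 8 immune and blood cell markers (Cd68) and 1 of 8 markers of enteric neurons and glia (Map2). None of 5 endothelial markers was called by limma (1 at an unadjusted p under 0.05). Over all genes tested 7.12% were called, and lists this short cannot be set against that share. In bulk RNA, fewer cells of a type and less RNA per cell cannot be told apart.

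Fetal growth regulators were split. Igf2bp1, an RNA-binding protein of the Lin28 axis that is largely silenced after birth, had levels of -8.83, -7.42 and -8.65 in crypt, -8.50, -4.86 and -6.95 in iISC, -4.07, -3.76 and -2.73 in FI, and -3.16, -3.02 and -0.32 in iFIPC organoids. The stages did not overlap, and iISC array 2 was the only adult-type array well above background. Against the faintest detected signal Igf2bp1 was 10.4-fold higher in fetal-type organoids, and the fitted difference of -4.69 ± 0.66 (adjusted p = 0.0017) rests on background levels. Of 9 genes of that axis 2 were called, Igf2bp1 and the chromatin factor Arid3a, both higher in fetal-type organoids, and the median was -0.09. Hmga2, an architectural chromatin factor regulated by let-7, was not called for stage (-0.56 ± 0.41, adjusted p = 0.417), with FI organoids at 2.11 to 2.47 and iFIPC organoids at -0.42 to 0.49. Lin28b was above background on 2 arrays, both fetal-type, and was not tested.

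Among imprinted growth genes 5 of 14 were called, each higher in fetal-type organoids and shared (median -1.15). They were the noncoding RNA H19 (-2.66 ± 0.50), the zinc finger regulator Plagl1 (-3.16 ± 0.46), the growth factor receptor adaptor Grb10 (-3.02 ± 0.56), the sarcoglycan Sgce (-2.93 ± 0.64) and Mest (-1.14 ± 0.27). Levels of H19 were -5.24, -5.47 and -5.22 in crypt, -4.61, -5.54 and -3.70 in iISC, -2.78, -2.47 and -1.40 in FI, and -3.04, -0.65 and -3.47 in iFIPC organoids. All fetal-type values lay above all adult-type values. Igf2, which shares the H19 locus, was not called (0.68 ± 1.21, adjusted p = 0.769); iISC array 3 read 4.27 and the other 11 arrays between -3.31 and -0.29. With the median over probes in place of the brightest probe, the calls of Grb10 and Sgce were lost.

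Prdm1, the suckling-stage repressor, was shared and higher in fetal-type organoids. It read -3.03, -3.84 and -4.55 in crypt and -4.33, -4.18 and -4.43 in iISC organoids, against levels between -1.62 and -0.51 in FI organoids and of -3.23, -2.54 and -1.87 in iFIPC organoids. Within each origin the stages did not overlap, although iFIPC array 1 was lower than crypt array 1. The difference was -2.26 ± 0.33 (adjusted p = 0.002). Ass1, the argininosuccinate synthase of the suckling enterocyte, differed by -1.56 ± 0.35 (adjusted p = 0.0157). The suckling list as a whole was split, with 2 of 18 called in each direction (median -0.15): Prdm1 and Ass1 were higher in fetal-type organoids, Gpd1, a glycerol phosphate dehydrogenase, and Amn, the amnionless partner of cubilin in vitamin B12 uptake, higher in adult-type organoids (1.91 ± 0.33 and 1.51 ± 0.27). Lct, the lactase of the suckling brush border, was spread widely in every group (from -3.81 to 4.66 over the 12 arrays) and was not called (-0.12 ± 1.06).

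The largest shared difference lay outside these lists. Efemp1, which encodes the matrix glycoprotein fibulin 3, read -9.05, -8.64 and -8.89 in crypt and -5.99, -2.98 and -2.04 in iISC organoids, against 2.03, 2.92 and 0.77 in FI and 3.22, 2.30 and 1.62 in iFIPC organoids. The 2 fetal-type groups overlapped each other while the adult-type groups stood apart from both, and 3 of 6 adult-type arrays were well above background. The fitted stage difference of Efemp1 was -8.41 ± 0.95 (adjusted p = 0.00054), its size resting partly on levels at background. Enah, an actin filament elongation factor, and Rab38, a small GTPase of vesicle traffic, were each above background on 1 of 6 adult-type arrays. With the other arrays at the faintest detected signal, Enah was 35.8-fold and Rab38 28.2-fold higher in fetal-type organoids (fitted differences -6.40 ± 0.43 and -6.05 ± 0.47), while the 3 probes of Enah ranged from -6.40 to -1.08. St3gal5, the GM3 ganglioside synthase, was measured on every array and ran from -5.83 to -4.62 in adult-type and from -2.14 to 0.57 in fetal-type organoids (-4.70 ± 0.42, adjusted p = 0.000168). The kinase Stk26 was at least 14.1-fold higher in fetal-type organoids. Inha, the inhibin alpha subunit, was at least 8.62-fold higher, and Ttc9 at least 7.92-fold, although both differed in size between origins.

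Interferon response genes were called in the fetal direction in 8 of 33 cases, 6 of them shared, with none called in the adult direction by limma (2 at an unadjusted p under 0.05) and a median of -0.58. Rsad2 (viperin) differed by -2.55 ± 0.47 and separated the stages without overlap. Gbp2 and Gbp3, interferon-induced GTPases, were well above background on 4 and 5 of the fetal-type arrays, and Gbp3 was at least 1.97-fold higher. In native organoids 1 FI array detected Gbp2 and 2 detected Gbp3, and the bounds there (0.93-fold and 0.83-fold) fix no direction. In induced organoids the bounds were 6.07-fold and 4.72-fold. With normexp background correction and quantile normalization 1 of the 33 was called. The call of Oasl2 (-2.03 ± 0.58) was lost on leaving out any single array except crypt 1 and iFIPC 1. None of 20 class I antigen presentation genes was called by limma, beside 7.12% of all genes tested, and 3 had an unadjusted p under 0.05.

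In the adult direction, enterocyte genes of the weaned intestine were called most often. Of 16 tested, 11 were called higher in adult-type organoids, 7 of them shared, and 1 lower, with a median of 1.66. Sis, the sucrase-isomaltase that digests sucrose after weaning, read 7.22, 7.95 and 7.83 in crypt and 8.03, 7.95 and 7.95 in iISC organoids. FI organoids read 5.93, 3.85 and 6.30, and iFIPC organoids 4.87, 7.30 and 6.63. Adult-type arrays were tightly grouped (7.82 ± 0.30, SD, n = 6) and fetal-type arrays scattered (5.81 ± 1.26), with iFIPC array 2 just above crypt array 1. The stage difference of Sis was 2.01 ± 0.48 (adjusted p = 0.0194).

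Treh, the brush border trehalase, differed by 2.38 ± 0.52, and its stages did not overlap (1.89 to 4.05 against -1.06 to 1.74). Arg2, a mitochondrial arginase, separated most in native organoids: crypt arrays read 3.44, 3.54 and 3.68, FI arrays -1.40, -1.30 and -0.13, iISC arrays -0.25, 0.11 and 0.51, and iFIPC arrays -3.29, 0.10 and -2.46. The difference of Arg2 was 3.25 ± 0.62 (adjusted p = 0.00674), with an iISC level close to that of the fetal-type groups. Enpep, the brush border glutamyl aminopeptidase, differed by 3.62 ± 0.64 without overlap. The sugar transporters Slc2a2 (GLUT2) and Slc2a5 (GLUT5, for fructose) differed by 2.75 ± 0.67 and 2.61 ± 0.55, and Slc5a1, the sodium-glucose transporter SGLT1, by 1.83. Fut2, a fucosyltransferase switched on at weaning, went against the list (-2.53 ± 0.52). Pigr, the polymeric immunoglobulin receptor, was called (1.53 ± 0.43) without being shared: it differed by 2.80 in native and 0.27 in induced organoids, and its call was lost without any single crypt or FI array or without iISC array 2.

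Brush border and microvillus genes gave fewer calls, 5 of 23, all higher in adult-type organoids, and a median of 0.50. They included Ggt1, the gamma-glutamyl transferase (3.04 ± 0.83), and Baiap2l2, a membrane-bending protein of microvilli, with the smallest error of these (1.50 ± 0.15, adjusted p = 0.000286). Baiap2l2 read 3.12, 3.09 and 3.03 in crypt, 2.75, 2.55 and 2.25 in iISC, 1.62, 2.10 and 1.84 in FI, and 0.56, 1.08 and 0.57 in iFIPC organoids. No fetal-type array reached the adult-type range. The call of Ggt1 was lost without crypt 2, crypt 3, FI 1, FI 2 or any single iISC array. The structural villin gene Vil1 did not pass the test (0.25 ± 0.09, adjusted p = 0.0814).

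Genes of lipid absorption were called only in the adult direction, in 9 of 25 cases, 8 of them shared, with a median of 1.09 (0 in the fetal direction at an unadjusted p under 0.05, limma). Fabp2, the intestinal fatty acid binding protein, read 7.59, 7.87 and 8.06 in crypt, 6.62, 6.78 and 5.99 in iISC, 5.15, 4.67 and 6.75 in FI, and 4.14, 5.47 and 4.27 in iFIPC organoids. Apart from FI array 3, adult-type values exceeded fetal-type values (2.08 ± 0.36, adjusted p = 0.00455). Creb3l3, a membrane-bound transcription factor of lipid metabolism, differed by 3.31 ± 0.72, and the apolipoproteins Apoc3 and Apoa1 by 2.92 ± 0.84 and 2.17 ± 0.55. Dgat1, Mogat2 and Gpat3, acyltransferases of triglyceride assembly, and Npc1l1, the cholesterol uptake protein, were shared at 1.75, 1.44, 1.78 and 1.99. The call of Apoa1 was lost without crypt 2, crypt 3, FI 2 or iISC 2, and that of Apoc3 without any of these or FI 1, iFIPC 3, iISC 1 or iISC 3.

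Several of these enterocyte genes had their highest fetal-type values on the same arrays. FI array 3 was the highest FI array for Sis (6.30), Treh (1.60), Arg2 (-0.13), Slc2a2 (2.09), Slc2a5 (1.98), Fabp2 (6.75), Creb3l3 (2.77) and Apoc3 (3.36). Array 2 was the highest iFIPC array for Sis (7.30), Treh (1.74), Arg2 (0.10), Slc2a2 (0.60), Slc2a5 (2.93), Fabp2 (5.47) and Creb3l3 (1.61). Enpep did not follow, with FI array 1 (2.64) and iFIPC array 1 (-1.10) the highest of their groups. Array 2 of iFIPC lay on the slide of the iISC arrays. Within that slide the induced difference was 0.03 for Arg2, 0.24 for Slc2a5, 0.38 for Apoa1, 0.67 for Sis, 0.83 for Slc2a2, 0.99 for Fabp2, 1.45 for Creb3l3, 2.40 for Apoc3 and 4.74 for Enpep. Arg2, Slc2a5 and Apoa1 thus hardly differed between these induced arrays.

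**Figure D3:**
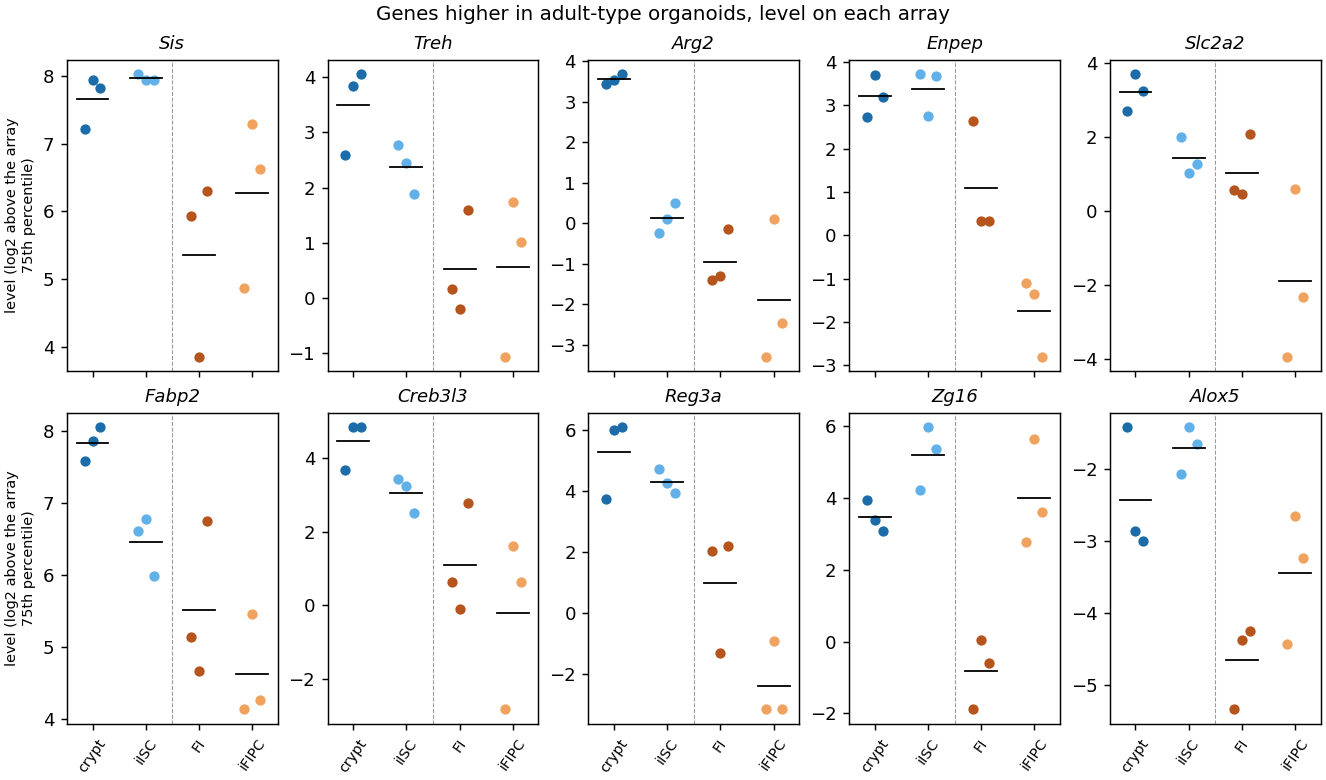
Level on each array (log2 relative to the 75th percentile of that array) of 10 shared genes higher in adult-type organoids, with bars at group means, blue points for adult-type and orange points for fetal-type organoids. Sis sits between 7.22 and 8.03 on the adult-type arrays and between 3.85 and 7.30 on the fetal-type arrays, and the fetal-type points are the more scattered.

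Promoter letters of the shared genes were read from RefSeq sequences on GRCm38.p6, from 250 bases before to 50 after each start, for the 228 of 292 adult-type and 342 of 462 fetal-type genes that had an entry. The motif CAAAGTCCA, bound by the enterocyte factors HNF4A and HNF4G, was searched on both strands. It was present in 8 of 284 promoters of shared adult-type genes (2.8%), 2 of 437 of shared fetal-type genes (0.5%) and 73 of 14617 promoters of all genes tested (0.5%). The 8 adult-type promoters belonged to 7 genes. In Hsd3b3, counted with more than 1 promoter, and in Nat8 the match began after the start, at bases 3 to 5 of the transcript. Promoters of 4 adult-type genes with a match upstream of the start are shown with it in capitals (as TGGACTTTG where it lies on the other strand), together with those of Sis and Fabp2, where the capitals mark a match to the caudal homeobox (CDX) motif TTTATNG, which when it lies on the other strand is read along the gene as CAATAAA. Each line gives the 150 bases before the start, written along the gene.
Treh: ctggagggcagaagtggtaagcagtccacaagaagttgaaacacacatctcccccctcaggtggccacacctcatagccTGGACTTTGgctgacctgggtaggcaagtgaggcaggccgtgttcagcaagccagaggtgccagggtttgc
Slc3a1: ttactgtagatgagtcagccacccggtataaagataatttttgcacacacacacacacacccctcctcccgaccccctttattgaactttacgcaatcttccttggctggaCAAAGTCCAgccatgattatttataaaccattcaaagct
Cyp2c70: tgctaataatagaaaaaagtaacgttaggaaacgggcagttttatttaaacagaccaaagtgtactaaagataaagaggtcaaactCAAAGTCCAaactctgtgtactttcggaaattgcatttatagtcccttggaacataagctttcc
Cd302: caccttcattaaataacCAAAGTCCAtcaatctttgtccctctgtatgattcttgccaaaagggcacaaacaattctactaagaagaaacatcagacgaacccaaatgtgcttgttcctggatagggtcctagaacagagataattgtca
Sis: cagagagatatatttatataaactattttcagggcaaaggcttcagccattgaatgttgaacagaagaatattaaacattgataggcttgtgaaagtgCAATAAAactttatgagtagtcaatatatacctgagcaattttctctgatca
Fabp2: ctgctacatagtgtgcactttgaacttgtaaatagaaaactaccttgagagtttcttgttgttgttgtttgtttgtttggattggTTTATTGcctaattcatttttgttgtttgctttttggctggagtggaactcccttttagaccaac

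In GRCm38.p6 these stretches lie at chr9:44673083-44673232 (plus strand) for Treh, chr17:85028197-85028346 (plus) for Slc3a1, chr19:40187287-40187436 (minus) for Cyp2c70, chr2:60284485-60284634 (minus) for Cd302, chr3:72967864-72968013 (minus) for Sis and chr3:122894922-122895071 (plus) for Fabp2. The match began 71 bases before the start of Treh, 39 before that of Slc3a1, 64 before that of Cyp2c70 and 133 before that of Cd302. Slc3a1, the heavy subunit of the cystine transporter, differed by 1.81 ± 0.46, the cytochrome Cyp2c70 by 2.10 ± 0.37 and the lectin receptor Cd302 by 1.86 ± 0.22. The CDX motif was in 10.2% of adult-type, 10.8% of fetal-type and 7.7% of all promoters. The GATA motif AGATAAG was in 5.3%, 1.8% and 2.1%, the AP-1 motif TGACTCA in 9.5%, 7.6% and 4.0%, the TEAD motif GGAATGT in 5.6%, 5.5% and 3.0%, and the TATA box TATAAA in 16.2%, 8.7% and 8.7%. Mean GC content was 53.8% in adult-type, 60.0% in fetal-type and 59.8% in all promoters, and its part in these shares was not tested. A match is a description of letters, and no binding was measured.

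Of 24 intestinal transcription factors 1 was called higher in adult-type organoids, Hnf4g, and 2 higher in fetal-type organoids, Isx and Prdm1. Hnf4a was not called (0.51 ± 0.16, limma adjusted p = 0.0644). A link between the levels of such factors and the motif shares was not tested. Hnf4g read -0.33, 0.26 and 0.24 in crypt, -1.14, -0.38 and -0.76 in iISC, -1.54, -1.88 and -1.57 in FI, and -2.19, -2.04 and -2.10 in iFIPC organoids. The stages did not overlap (1.53 ± 0.16, adjusted p = 0.0003). Cdx2 was not called for stage (0.23 ± 0.37): it was lower in crypt than in FI organoids by 0.88 and higher in iISC than in iFIPC organoids by 1.35. Gata4, a factor of the proximal intestine, missed the threshold (1.41 ± 0.44, adjusted p = 0.059).

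Vitamin A genes were called in both directions, 5 higher in adult-type and 5 higher in fetal-type organoids of 16 tested, all 10 shared. The intestine cleaves dietary carotene, stores the product as retinyl ester and oxidises part of it to retinoic acid, and Isx is the homeobox repressor that retinoic acid induces to limit carotene cleavage and uptake. Isx read -8.41, -8.63 and -8.85 in crypt, -5.63, -4.35 and -6.92 in iISC, -1.11, -3.34 and -3.78 in FI, and 2.17, 3.47 and 3.55 in iFIPC organoids. The 4 groups did not overlap, 2 of 6 adult-type arrays were well above background, and the difference of -7.29 ± 0.68 (adjusted p = 0.00019) was second in size to Efemp1 among the genes named by rule. Its known target Bco1, the carotene oxygenase, went the other way, at 0.04, 2.33 and 2.25 in crypt, 1.02, -1.07 and -1.49 in iISC, -1.51, -3.08 and -1.02 in FI, and -2.76, -2.87 and -2.38 in iFIPC organoids (2.78 ± 0.58, adjusted p = 0.0104).

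Enzymes of the pathway differed in direction. Aldh1a1, a retinaldehyde dehydrogenase, was higher in adult-type organoids without overlap, at 4.03 to 6.36 against 0.78 to 3.19 (2.83 ± 0.53). Its relatives Aldh1a3 and Aldh1a2 were higher in fetal-type organoids (-4.19 ± 0.79 and -2.07 ± 0.46), the latter below background on every adult-type array, which gives at least 1.25-fold. Aldh1a3 was below background on every crypt array, so its fitted size rests partly on background levels. Its groups were not ordered by stage: the mean was -2.62 in iISC and -4.30 in FI organoids. Arrays read -3.92, -2.99 and -0.96 in iISC and -3.04, -5.68 and -4.17 in FI organoids. Lrat, which esterifies retinol for storage, differed by 2.30 ± 0.31, the retinol dehydrogenase Rdh7 by 2.36 ± 0.45 (0.15 between the iISC arrays and the iFIPC array of their slide) and Bco2, the other carotene oxygenase, by 1.86 ± 0.30. The retinoic acid receptor Rarb, itself a retinoic acid target, was above background on no adult-type and 5 of 6 fetal-type arrays, at least 7.01-fold higher (adjusted p = 0.0023). Rbp7, a further retinoid binding protein outside the list, was higher in adult-type organoids (4.50 ± 0.90) and by more in native ones.

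**Figure D4:**
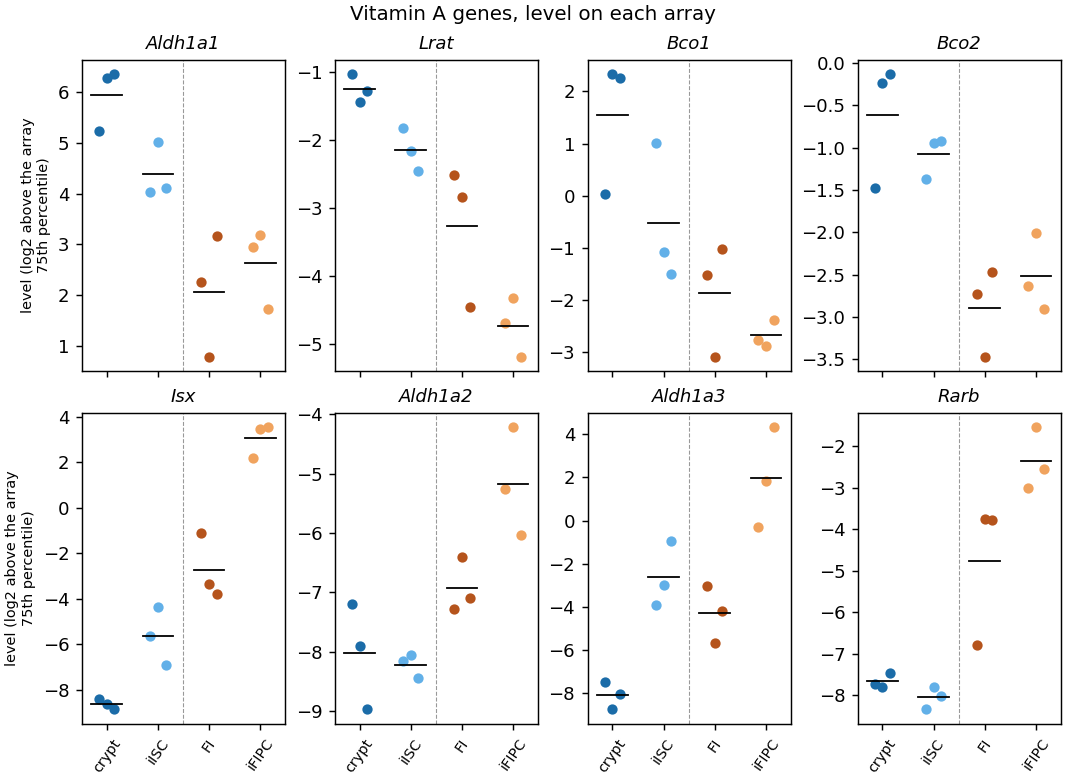
Level on each array (log2 relative to the 75th percentile of that array) of 8 vitamin A genes, with bars at group means, blue for adult-type and orange for fetal-type organoids. The upper row (Aldh1a1, Lrat, Bco1, Bco2) is higher in adult-type and the lower row (Isx, Aldh1a2, Aldh1a3, Rarb) higher in fetal-type organoids, with iFIPC arrays highest in the lower row.

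Enzymes of drug and steroid metabolism leaned to the adult type. Of 26 cytochrome P450 genes 8 were called higher and 3 lower (median 0.82), and of 32 glutathione, glucuronide and sulfate transferases 9 were called higher and none lower (0 at an unadjusted p under 0.05, limma; median 0.64). Ugt2b5 and Ugt2b36, glucuronosyltransferases, differed by 2.72 ± 0.32 and 2.20 ± 0.30, and the cytochromes Cyp2u1 and Cyp4a10 by 2.07 ± 0.37 and 1.87 ± 0.50. Cyp1b1, a dioxin-inducible cytochrome typical of stromal and fetal tissue, went the other way and was below background on all adult-type arrays, at least 20.4-fold higher in fetal-type organoids. Cyp27a1, the sterol 27-hydroxylase, was also lower in adult-type organoids (-2.03 ± 0.31). Members of the Ugt2b and Cyp2d families resemble each other closely, so a probe may read more than its named gene. The call of Cyp4a10 was lost without crypt 2, crypt 3, FI 1, FI 2, iFIPC 1, iISC 1 or iISC 2.

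Secretory cell lists differed in how many stage calls they gave, where 7.12% of all genes tested were called. Of 7 Reg family lectins 2 were called, both higher in adult-type organoids. Reg3a, a bactericidal lectin, read 3.76, 6.00 and 6.11 in crypt, 4.73, 4.27 and 3.94 in iISC, 2.05, -1.30 and 2.21 in FI, and -3.16, -0.92 and -3.14 in iFIPC organoids. The stages did not overlap (5.51 ± 0.78, adjusted p = 0.0017). Reg3d differed by 4.12 ± 0.50, and 3 of the 6 fetal-type arrays were above background. Of 18 Paneth cell genes 1 was called higher, Pnliprp2, a pancreatic lipase relative (1.86 ± 0.50; lost without crypt 1, FI 3, iFIPC 1, iFIPC 3, iISC 2 or iISC 3), and 2 lower, among them Mmp7, the protease that activates defensins, which was detected on every array and lower in adult-type organoids without overlap (-1.59 ± 0.27, adjusted p = 0.00398). Lyz1, the Paneth cell lysozyme, did not pass (0.56 ± 0.35), with FI arrays 2 and 3 the lowest at 4.84 and 5.32.

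Goblet cell genes were called in 3 of 23 cases. The lectin Zg16 (2.74 ± 0.70) and the kallikrein Klk1 (2.90 ± 0.27, adjusted p = 0.00019) were higher in adult-type organoids, and Retnlb, a resistin-like goblet peptide, was at least 4.95-fold higher on the fetal side, where 4 of 6 arrays were above background. Zg16 was low in FI organoids (-1.89, 0.03 and -0.61) and at adult-type level in iFIPC organoids (2.77, 5.64 and 3.60); its call was lost without crypt 2, crypt 3, FI 2, FI 3 or iFIPC 1. The mucin gene Muc2 did not pass (0.64 ± 0.41). Tuft cells, chemosensory cells that make leukotrienes, were the secretory type with the most calls: 7 of 17, all higher in adult-type organoids, 3 of them shared, with a median of 1.16. The leukotriene enzymes Alox5 (1.98 ± 0.37) and Ltc4s (1.22 ± 0.12) were among those shared. Dclk1, the usual tuft marker, was called (1.17 ± 0.30) but differed by 1.86 in induced and 0.49 in native organoids. Its call was lost without crypt 1, any single iFIPC array or any single iISC array.

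Stem cell, proliferation and hormone genes gave few or no stage calls. Over all genes tested 7.12% were called, and lists of this length cannot be set against that share. Of 27 stem cell and Wnt targets 1 was called, the water channel Aqp4 (1.55 ± 0.44), a call kept only without FI 3, iFIPC 3 or iISC 1 when single arrays were left out. Lgr5, the receptor of crypt base stem cells, read 3.68, 2.96 and 3.35 in crypt, 3.62, 2.89 and 2.20 in iISC, 4.29, 4.62 and 4.90 in FI, and 2.77, 1.63 and 3.50 in iFIPC organoids. FI organoids were highest, and the other 3 groups overlapped (-0.50 ± 0.40, adjusted p = 0.461). Olfm4 (0.47 ± 0.87) and Ascl2 (-0.22 ± 0.30) did not pass either. None of 37 cell cycle and replication genes was called by limma (3 at an unadjusted p under 0.05), with stage differences between -0.71 and 0.18, and Mki67 differed by -0.08 ± 0.17. None of 30 enteroendocrine genes was called by limma (3 at an unadjusted p under 0.05), where the median was -1.03 in native and 0.82 in induced organoids, and Chga differed by 0.34 ± 0.36. Limma called 0 of 24 cholesterol synthesis genes (5 at an unadjusted p under 0.05), 0 of 11 HoxA genes (1) and 0 of 7 HoxB genes (1). Hoxc9, at least 2.82-fold higher in fetal-type organoids with 4 of 6 arrays above background, was the 1 call of 8 HoxC and HoxD genes. It was lost without FI 2, iFIPC 1, iISC 2 or iISC 3. In native organoids only 1 FI array was above background, and the bound there (0.58-fold) fixes no direction, although Hoxc9 met the shared rule. In induced organoids the bound was 13.8-fold.

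**Figure D5:**
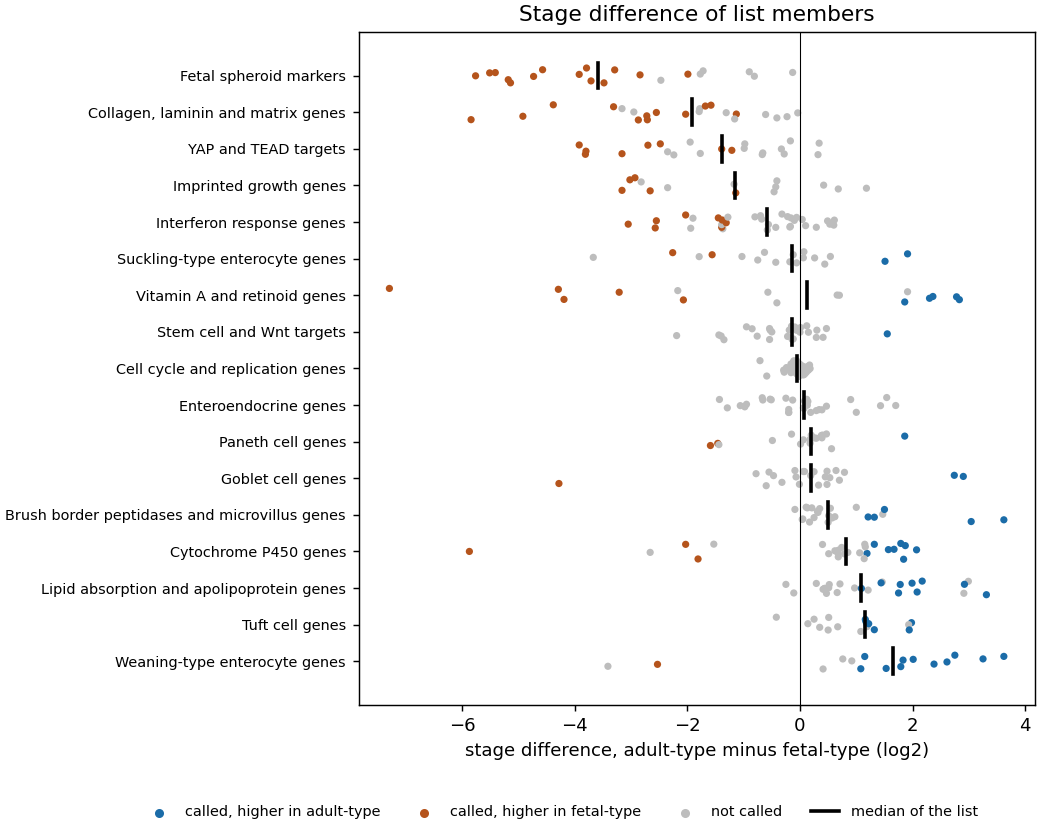
Stage difference (adult-type minus fetal-type, log2) of every tested member of 17 gene lists, 1 point per gene, blue where called higher in adult-type, orange where called higher in fetal-type organoids and grey where not called, with a black bar at the median of the list. Fetal spheroid markers (median -3.59) lie at the left end and weaning-type enterocyte genes (median 1.66) at the right, and cell cycle genes cluster at 0.

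Fetal-type and adult-type shared genes differed in where else they were detected. Shared fetal-type genes were well above background on all 3 MEF arrays in 88.5% and on all 3 iHep arrays in 87.0% of cases, close to the 88.1% and 88.6% of all genes tested. For shared adult-type genes the shares were 43.8% and 45.5%. Those arrays were extracted with another software version, so only their detection flags are used here. Sis was above background on no MEF and no iHep array, and Isx on no MEF array but on all 3 iHep arrays. Clu, Ccn2 and Efemp1 were above background on all 3 arrays of both cell types.

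At the edge of the shared rule, Hsd3b3 (native difference 1.00) and Shpk (induced difference 1.00) were just inside and Gchfr (native 1.00) just outside, each value being rounded, as was Ccn1, whose induced difference fell short of 1 by less than the rounding. Slides held parts of several groups. Crypt array 1 and the 3 FI arrays shared a slide, as did iFIPC array 2 and the 3 iISC arrays. Within these slides 290 of 292 shared adult-type and 458 of 462 shared fetal-type genes kept their direction in both origins, a count that uses arrays the rule had used. Medians there were 1.60 (native) and 1.27 (induced) for adult-type and -2.01 and -2.57 for fetal-type genes. With slide as a fixed block the shared genes numbered 81 and 174, and among named genes 66 calls were lost. On the fetal side these included Clu, Anxa1, Msln, Ly6a, Vsig1, Spp1, Gja1, Nt5e, Igf2bp1, Ass1, Col1a1, Col18a1, Fn1, Ttc9, Fut2, Rsad2, Gbp2, Gbp3, Oasl2, Mmp7, Retnlb, Hoxc9, Map2, Cyp27a1 and Aldh1a3. On the adult side they included Sis, Arg2, Enpep, Slc2a2, Slc2a5, Pigr, Ggt1, Fabp2, Creb3l3, Apoa1, Apoc3, Gpd1, Amn, Reg3a, Pnliprp2, Zg16, Alox5, Aqp4, Rdh7, Cyp2u1, Cyp4a10, Mylk, Hsd3b3, Shpk and Gchfr. The calls of Isx, Efemp1, Ccn2, Myof, Col4a2, H19, Plagl1, Prdm1, Hnf4g and Baiap2l2 were kept there. With normexp background correction and quantile normalization 195 adult-type and 193 fetal-type genes were shared, and the calls of Spp1, Ankrd1, Col1a1, Fn1, Sgce, Rsad2, Gbp2, Gbp3, Aldh1a3 and Cyp27a1 were among 21 lost.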

How the data were processed

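Cy3-labelled RNA was hybridised to 1-colour Agilent whole mouse genome arrays. The deposited processed signal of each array is an intensity on the linear scale after background subtraction by Feature Extraction (10.7.1.1 and mm9 for the organoid arrays per the file headers, 9.5.1.1 per the submitters' processing notes), and raw means and background medians are deposited intensity values too. The deposited spot flags are 0 or 1 and hold no level. The authors' series matrix, a deposited table of intensity values, served as an alternative.

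Control spots and spots marked as outliers were dropped, spots of a probe were averaged as log2, and the 75th percentile of each array was subtracted. Probes were named by RefSeq accession (25001), symbol (5960) or synonym (1767), and 8446 had no name. For each gene the probe with the highest mean level was used, and a gene was tested when that probe was well above background on all 3 arrays of at least 1 organoid group (14519 of 19721 genes). Whether a probe lies in an exon or UTR was not determined here. limma 3.58.1 in R 4.3.3 fitted stage and origin over 12 arrays (lmFit, eBayes, two-sided), and 1 mean per group for native, induced and interaction differences. Errors after ± are standard errors of that fit unless marked SD. In data simulated on 14519 genes with 200 changed, the stage fit called 82.1%, 88.1% and 92.4% of those changed by 1.5, 2 and 3 log2, with 2 false calls. The simulated levels held no origin, interaction or slide effect, so these shares and false calls do not carry over to the arrays.

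Named were anchor genes, the 15 largest non-overlapping shared differences each way, up to 4 shared members of each of 41 lists with up to 2 called against them, and 4 genes at the edge of the shared rule. Some of these are not reported here or only in counts, and further list members are named with their values. The members and lists were chosen with earlier results of these data known. Alternatives were other normalizations, filters, designs, probe rules and each array left out. With no counts behind a signal, precision is limited by how many arrays a group has.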

Additional observations from a re-analysis of the deposited data

Results flagged for a closer look

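For 11 of the genes named by rule the stage difference itself differed between origins, at an interaction adjusted p under 0.05 by limma. Interaction values are the induced minus the native difference, and over all genes 7.36% passed that threshold.

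Of the 11, 7 met the shared rule, with fitted differences of 1 sign and unequal size in the 2 origins. The adhesion receptor Adgrd1, below background on every fetal-type array, was higher in adult-type organoids by 7.99 in native and 3.58 in induced organoids (interaction -4.41, adjusted p = 0.0375). Rbp7 followed the same pattern, with 6.87 and 2.14 (-4.73, adjusted p = 0.0377). The acyl-CoA synthetase Acsm5 had the larger difference in induced organoids, 6.22 against 2.81 (3.40, adjusted p = 0.0342), and so did Reg3d, 5.44 against 2.80 (2.64, adjusted p = 0.0324), but both were below background on every iFIPC array, where the bounds are at least 16.2-fold for Acsm5 and 11.3-fold for Reg3d. On the fetal side, Inha differed by -6.75 in native and -2.61 in induced organoids (4.14, adjusted p = 0.0209). Ttc9 differed by -2.22 and -7.01 (-4.79, adjusted p = 0.0111), and Fn1 by -1.81 and -6.94 (-5.13, adjusted p = 0.0223). These 3 were below background on every adult-type array, and Fn1 on every native array, so their fitted sizes rest partly on background levels and the native value of Fn1 has no measured direction.

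The other 4 were not shared. Gja1 differed by -0.95 in native and -6.01 in induced organoids (-5.06, adjusted p = 0.0421), and Pigr by 2.80 and 0.27 (-2.53, adjusted p = 0.00947). Hmga2 was lower in crypt than in FI organoids by 1.73 and higher in iISC than in iFIPC organoids by 0.62 (2.35, adjusted p = 0.0124). Cdx2 had opposite signs as well, -0.88 and 1.35 (2.23, adjusted p = 0.00654). The number of interactions over all genes ranged from 353 to 2574 when single arrays were left out, so these p-values rest on which arrays are present.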

How the results depend on the processing

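Counts of genes higher in adult-type and fetal-type organoids kept within 1.5 times the main counts under quantile normalization, series matrix values, no filter on dim probes, 1 mean per group, slide as a random block, the median over probes and each array left out. Under these settings shared adult-type genes ranged from 226 to 324 and shared fetal-type genes from 393 to 473. With normexp background and quantile normalization 331 fetal-type genes were called and 193 shared. Among genes well above background on all 12 arrays, 340 were called and 216 shared in the fetal direction. With slide as a fixed block 88 adult-type and 200 fetal-type genes were called, 81 and 174 of them shared. There the native difference rests on 1 crypt array and the induced one on 1 iFIPC array within a slide, and none of the 754 shared genes changed sign. Requiring a call in each origin by itself left 124 and 199. When single arrays were left out, stage calls ran from 323 to 427 (adult-type) and 502 to 643 (fetal-type), native calls from 708 to 1779, induced calls from 748 to 1153 and interactions from 353 to 2574. Of the named genes with a call, 36 kept it under every setting, and 66 of the other 71 lost it with slide as a fixed block. With the median over probes 8 of the 754 shared genes changed sign, Map2 turned to 0.36 (adjusted p = 0.1595, limma) and Dnah2 lost its call. Replicate numbers did not pair the arrays (4 of 18 same-number pairs correlated above 0.1), and with the replicate block 363 adult-type and 542 fetal-type genes were called, 276 and 422 shared. Genes dim in the lower stage have only bounds.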

Other observations

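Several of the largest shared differences belong to genes that are not usual intestinal stage markers. Unc93a, a relative of an endosomal trafficking protein, differed by 4.49 ± 0.51 and the organic anion transporter Slco2b1 by 4.39 ± 0.50, each without overlap (limma adjusted p = 0.00055 and 0.00054). On Unc93a the adult-type arrays were tightly grouped, from 1.33 to 2.09, and the fetal-type arrays spread from -5.43 to -1.09. The neighbouring sugar transporter relatives Slc5a4a and Slc5a4b were both higher in adult-type organoids (3.70 ± 0.58 and 4.09 ± 0.54), and since they resemble each other a probe may read both. Slc6a3, the dopamine transporter, differed by 3.92 ± 0.75, with crypt arrays at -1.41, 1.16 and 1.00 and iFIPC arrays at -7.86, -3.63 and -5.14. The axonemal dynein Dnah2 differed by 4.14 ± 0.62 on its brightest probe and by 0.39 on another, and with the median over probes its adjusted p was 0.798.

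On the fetal side, the serine protease Hpn (hepsin) separated the stages without overlap (-4.81 ± 0.82), and the cell surface ligand Nrn1 differed by -4.71 ± 1.04. Of 29 mucosal defence genes 3 were called higher in adult-type organoids (Pigr, Ccl25 and Ccl28) and 1, Tlr2, higher in fetal-type organoids. Over all genes tested these shares were 2.76% and 4.36%. Tlr2, the receptor for bacterial lipopeptides, was tightly grouped in fetal-type organoids. FI arrays read -0.75, -0.61 and -0.61 and iFIPC arrays -0.69, -1.07 and -0.51, against -4.14 to -1.65 in adult-type organoids (-2.18 ± 0.32, limma adjusted p = 0.00196). Cybrd1, the duodenal ferric reductase, was higher in fetal-type organoids (-2.75 ± 0.81), but without any of crypt 1, FI 2, FI 3 or any single induced array the call was lost. Car2, a carbonic anhydrase, and Slc26a3, the chloride-bicarbonate exchanger, both genes of the colon surface, went in opposite directions (-3.09 ± 0.60 and 2.21 ± 0.37). With slide as a fixed block the calls of Tlr2, Nrn1, Slc6a3, Slc5a4a, Dnah2, Car2 and Slc26a3 were lost. Of further lists, 2 of 15 stomach genes were called higher in fetal-type organoids, as were 1 of 14 keratin genes and 1 of 5 class II antigen presentation genes, while limma called none of these genes in the adult direction (0, 1 and 0 there at an unadjusted p under 0.05). In the adult direction fell 1 of 10 ileal and bile acid genes, 1 of 4 Gimap GTPases and 1 of 18 hepatocyte genes, with none called in the fetal direction (1, 0 and 1 at an unadjusted p under 0.05). Of 24 claudin and junction genes 1 was called each way. Over all genes tested 2.76% were called in the adult and 4.36% in the fetal direction. Lists this short, with 1 or 2 calls each, cannot be set against those shares.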
